A study of Mus musculus with 12 samples.

Results

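A set of 10 genes of fibroblast growth factor (FGF) signalling was followed in embryoid bodies of the mouse, clumps of embryonic stem (ES) cells that leave pluripotency and begin to form germ layers. They are the ligands Fgf4, Fgf8, Fgf15 and Fgf17, the receptor Fgfr1, and genes that the pathway is known to induce, Spry2, Spry4, Dusp6, Etv4 and Etv5. For each, the probe sets annotated to that gene alone were taken and the brightest stood for the gene. This gave 10 of the 19938 genes with a probe set of their own, and all 10 were among the 15950 tested. Only Etv5 had more than 1 probe set.

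The 12 arrays came from a pair of lines made in A2lox ES cells (background 129P2/OlaHsd), into which a transgene driven by doxycycline (dox) can be placed. In the knockdown line dox at 0.5 µg/ml, given from day 0, turned on microRNAs against Geminin (gene Gmnn), a regulator of DNA replication licensing and of chromatin; dox and control embryoid bodies were collected on day 4 (3 arrays each). In the overexpression line the same dose from day 3 turned on Geminin itself; dox and control embryoid bodies were collected on day 5 (replicates 1 and 2) and on day 4 (replicate 3), 1 array of each per replicate. All ES cells had been kept on irradiated mouse embryonic fibroblasts with LIF and serum, and feeders were removed before aggregation. Every treated group carried both dox and a transgene product, and a line given dox without either product is not analysed here. Whether replicates were separate cultures is not stated, and the spread behind each p-value may therefore be technical.

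FGF ligands bind receptor tyrosine kinases together with heparan sulfate and pass the signal through Ras, Raf and MEK to the kinase ERK. ERK then induces its own brakes, the Sprouty proteins and the phosphatase Dusp6, and the ETS transcription factors Etv4 and Etv5, so these transcripts are widely used as readouts of the pathway. In the mouse embryo Fgf4 is made by pluripotent cells and promotes their readiness to differentiate, whereas Fgf8 is made in the primitive streak, where cells need it to move away as mesoderm and endoderm.

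Levels are log2 intensities, as log2(intensity + 1), after quantile normalization, and a difference of 1 is a 2-fold change. They were compared within a probe set and never between genes. The fit was limma over all tested genes, with genes called at a Benjamini-Hochberg adjusted p under 0.05, and errors of differences are standard errors (SE) of the model. Gmnn itself stood at 9.66, 9.74 and 9.63 in the knockdown dox arrays, against 10.33, 10.15 and 10.05 in their controls (replicates 1 to 3), with no overlap (-0.50 ± 0.14 SE; limma adjusted p = 0.965). Overexpression arrays gave 11.38 and 10.83 with dox on day 5 and 11.04 with dox on day 4, against 10.29, 10.15 and 10.35 in the controls, again with no overlap (0.82 ± 0.14 SE; limma adjusted p = 0.922). Markers of the cells such aggregates can hold were set against the filter on mean level. It passed 12 of 12 primitive streak, 12 of 12 naive pluripotency and 8 of 8 primed epiblast genes. T, or Brachyury, has no probe set annotated to it alone and is not among the streak genes. Also passed were 9 of 9 neural ectoderm, 12 of 13 visceral endoderm, 10 of 11 blood and endothelial and 9 of 11 feeder fibroblast genes. The filter passed 15950 of all 19938 genes, so these counts do not show which cells were present.

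**Figure D1:**
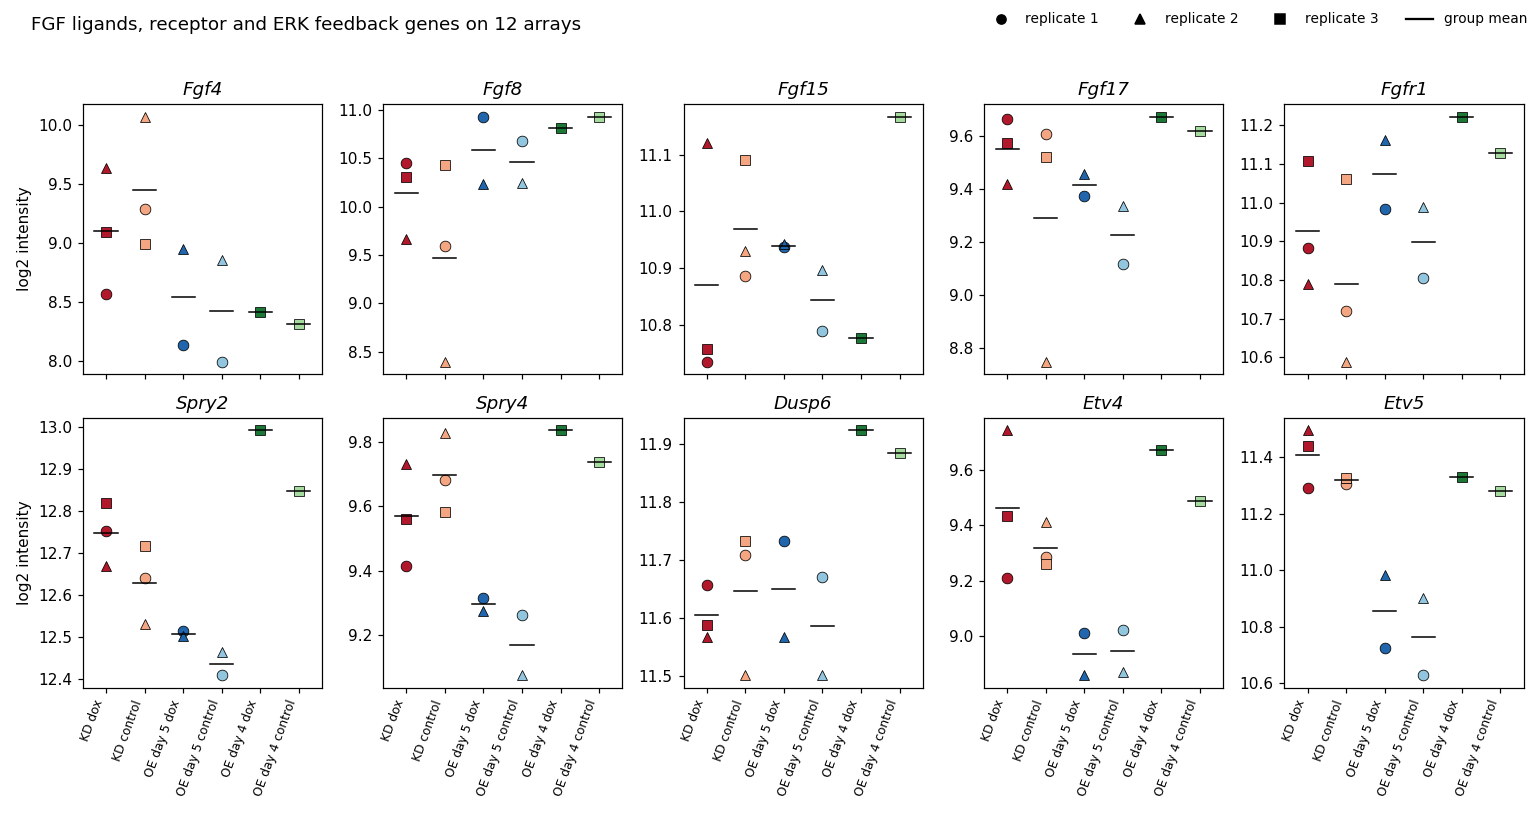
Log2 intensity of each of the 10 genes (y axis, a scale of its own in each panel) in the 12 arrays, grouped by line (KD, knockdown; OE, overexpression), day and dox. Each point is 1 array with its shape giving the replicate number, and bars are group means. Fgf4 and Fgf8 spread over more than 2 log2 units, while Fgf15 and Dusp6 stay within 0.43 and 0.42.

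The genes differed widely in how much they varied. Fgf8 spanned 2.53 log2 units over the 12 arrays, 5.76-fold, more than 99.3% of tested genes, and Fgf4 spanned 2.08 units, 4.22-fold, more than 98.5%. The median span of all tested genes was 0.59 units. Fgf17, Etv4, Etv5 and Spry4 spanned between 0.76 and 0.92 units, Fgfr1 0.63 and Spry2 0.58. Fgf15 (0.43 units) and the ERK phosphatase gene Dusp6 (0.42 units) were flatter than most genes.

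Neither lowering nor raising Geminin gave a called change in any of the 10 genes. The fit did not call Gmnn itself either, 1.41-fold lower in the knockdown line and 1.76-fold higher in the overexpression line. The lack of a call therefore does not show the absence of a response. In the knockdown line limma called 0 of 10 (percent called among all tested genes 0.00627%, 1 gene), with 0 at an unadjusted p under 0.05 (3.76% of all genes). For the overexpression line it called 0 of 10 (0.00627%, 1 gene), with 0 at an unadjusted p under 0.05 (0.934%). A fit with the replicate number as a term within each line also called 0 of 10 in both. In the knockdown line it gave Fgf8 0.67 ± 0.23 SE (limma unadjusted p = 0.0232). For Fgf4 it gave -0.35 ± 0.14 SE (limma unadjusted p = 0.0391). These were 2 of 10 under 0.05, against 12.2% of genes. In the overexpression line 1 of 10 passed, Fgfr1 (limma unadjusted p = 0.0498), against 3.59%. Pairing was weak for knockdown replicate 3 (correlation 0.0510), so this was not the main fit. For no member did dox and control arrays separate without overlap in either line, against 8.22% of genes in the knockdown line and 3.79% in the overexpression line. The exact two-sided permutation test over the arrays of a line could not have gone below p = 0.1 in the knockdown line or p = 0.167 in the overexpression line, and the lowest values among the members were 0.2 and 0.167.

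Among the ligands, the primitive streak ligand Fgf8 (probe set 10468070) had the largest difference in the knockdown line. It stood at 10.45, 9.66 and 10.31 with dox, against 9.59, 8.40 and 10.42 in the controls (replicates 1 to 3). Control replicate 2 was the lowest of all 12 arrays, the dox arrays of replicates 1 and 2 were above the controls of the same number, and that of replicate 3 was slightly below. The fitted difference was 0.67 ± 0.43 SE, 1.59-fold (95% interval -0.27 to 1.61; limma adjusted p = 0.965), and it was 0.13 without control replicate 2. Overexpression arrays had Fgf8 at 10.93 and 10.23 with dox on day 5 and 10.81 with dox on day 4, against 10.68, 10.24 and 10.92 in the controls. There the dox and control arrays lay interleaved (0.044 ± 0.43 SE; 95% interval -0.90 to 0.99).

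Fgf4 (probe set 10559367), the ligand of pluripotent cells, moved the other way in the same knockdown pairs. Its levels were 8.57, 9.64 and 9.09 with dox, against 9.29, 10.07 and 8.99 in the controls. Replicates 1 and 2 were lower with dox, by 0.72 and 0.44 log2 units, and replicate 3 was 0.099 higher, so the groups overlapped. The fit gave -0.35 ± 0.35 SE (95% interval -1.14 to 0.43; limma adjusted p = 0.965), and -0.042 without control replicate 2. Overexpression arrays had Fgf4 at 8.14 and 8.95 with dox on day 5 and 8.42 with dox on day 4, against 7.996, 8.86 and 8.32 in the controls. Each dox array was close above its control of equal number, by 0.14, 0.091 and 0.098, while replicates lay far further apart (0.11 ± 0.35 SE; limma adjusted p = 1.00).

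Fgf17 (probe set 10421436), a ligand of the same subfamily as Fgf8, was higher with dox in all 3 knockdown pairs, but by 0.054, 0.67 and 0.054. Its levels were 9.66, 9.42 and 9.57 with dox, against 9.61, 8.75 and 9.52 in the controls. Control replicate 2 alone stood apart, and the fitted difference of 0.26 ± 0.19 SE (limma adjusted p = 0.965) became -0.012 without it. With dox in the overexpression line it was 9.37 and 9.45 on day 5 and 9.67 on day 4, against 9.12, 9.34 and 9.62 in the controls. The 3 pairs were again all higher with dox, and the groups overlapped (0.14 ± 0.19 SE).

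Fgf15 (probe set 10559373), the mouse orthologue of human FGF19 and best known as a gut hormone that restrains bile acid synthesis, showed no common direction. Knockdown arrays gave 10.74, 11.12 and 10.76 with dox, against 10.89, 10.93 and 11.09 in the controls (-0.098 ± 0.13 SE). Overexpression arrays gave 10.94, 10.94 and 10.78 with dox, against 10.79, 10.90 and 11.17 in the controls (replicates 1 and 2 on day 5, replicate 3 on day 4; -0.066 ± 0.13 SE). The day 4 pair was lower with dox by 0.39 and both day 5 pairs were higher. In the RefSeq gene order Fgf15 is next to Fgf4 on chromosome 7, with Fgf3 on the other side of Fgf4. While Fgf4 spanned 4.22-fold over the arrays, its neighbour Fgf15 spanned 1.35-fold.

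Fgfr1 (probe set 10570982), the main FGF receptor of the epiblast, was higher with dox in all 6 pairs by 0.047 to 0.20 log2 units. Of all genes, 19.5% were higher in all 3 knockdown pairs and 16.6% in all 3 overexpression pairs. The share higher in all 6 was not computed. It stood at 10.88, 10.79 and 11.11 with dox in the knockdown line, against 10.72, 10.59 and 11.06 in the controls. The overexpression line had 10.98, 11.16 and 11.22 with dox, against 10.81, 10.99 and 11.13 in the controls (replicates 1 and 2 on day 5, replicate 3 on day 4). The spread between replicates was wider than the differences within pairs, so groups overlapped in both lines. The fitted differences were 0.14 ± 0.13 SE (limma adjusted p = 0.965) in the knockdown line and 0.15 ± 0.13 SE (limma adjusted p = 1.00) in the overexpression line.

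Of the feedback inhibitors, Spry2 (probe set 10422227), a Sprouty protein gene, was also higher with dox in all 6 pairs, by 0.040 to 0.15. In the knockdown line it stood at 12.75, 12.67 and 12.82 with dox, against 12.64, 12.53 and 12.72 in the controls, and the groups overlapped. The fitted differences were 0.12 ± 0.084 SE in the knockdown line and 0.097 ± 0.084 SE in the overexpression line (95% intervals -0.069 to 0.30 and -0.090 to 0.28). Spry4 (probe set 10458555), another Sprouty gene, split by line. With dox it was 9.41, 9.73 and 9.56 in the knockdown line, against 9.68, 9.83 and 9.58 in the controls, lower in all 3 pairs by between 0.021 and 0.27 (-0.13 ± 0.11 SE). Overexpression arrays had it at 9.32, 9.28 and 9.83 with dox, against 9.26, 9.08 and 9.74 in the controls, higher in all 3 pairs by between 0.053 and 0.20 (0.12 ± 0.11 SE). The test of the difference between the effects, knockdown minus overexpression, gave -0.25 ± 0.15 SE (95% interval -0.58 to 0.088; limma adjusted p = 1.00) and was not called.

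Dusp6 (probe set 10366043), whose product removes the activating phosphates from ERK, was close to its controls with dox. With knockdown it stood at 11.66, 11.57 and 11.59 with dox, against 11.71, 11.50 and 11.73 in the controls (-0.043 ± 0.096 SE, 95% interval -0.25 to 0.17). The overexpression levels were 11.73, 11.57 and 11.92 with dox, against 11.67, 11.50 and 11.89 in the controls (0.055 ± 0.096 SE, 95% interval -0.16 to 0.27). The groups overlapped in both lines.

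The ETS factors, which carry the ERK signal to target genes, were close to their controls. In the knockdown line Etv4 stood at 9.21, 9.74 and 9.43 with dox, against 9.28, 9.41 and 9.26 in the controls. Etv5 stood at 11.29, 11.50 and 11.44 with dox, against 11.31, 11.33 and 11.33 in the controls. Dox and control arrays overlapped for both genes. They gave differences of 0.14 ± 0.13 SE (Etv4, probe set 10391490) and 0.090 ± 0.10 SE (Etv5, probe set 10363901) in the knockdown line, and 0.055 ± 0.13 and 0.077 ± 0.10 SE in the overexpression line. Etv4 was higher with dox in 2 of 3 knockdown pairs and 1 of 3 overexpression pairs, and Etv5 in 2 of 3 and 3 of 3.

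Across the set, 6 of 10 members were above 0 in the knockdown line (52.7% of all genes were) and 9 of 10 in the overexpression line (56.7%). The median difference was 0.10 in the knockdown line against 0.010 over all tested genes, and 0.087 in the overexpression line against 0.014. All 3 pairs pointed one way for 4 members in the knockdown line, where 31.7% of genes did so, and for 7 in the overexpression line, where 27.0% did so. Of the differences between the effects in the lines, limma called 0 of 10 (0% of all genes), with 0 at an unadjusted p under 0.05 (2.13%). Besides Spry4, the smallest p values belonged to Fgf8 (0.63 ± 0.60 SE) and Fgf4 (-0.46 ± 0.50 SE). With the replicate number as a term, limma again called 0 of 10 of these differences. There 1 of 10 had an unadjusted p under 0.05, Spry4 (limma unadjusted p = 0.0461), against 8.68% of all genes.

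**Figure D2:**
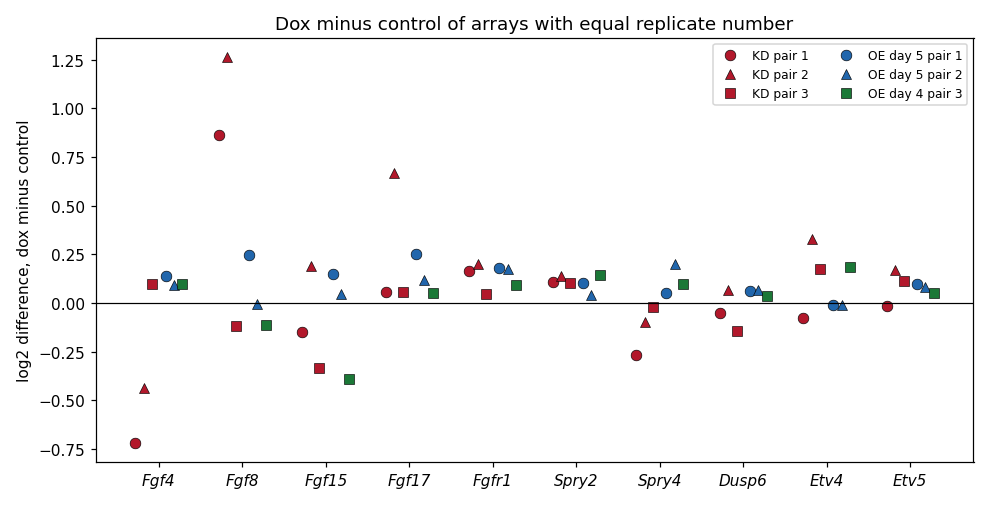
Log2 difference, dox minus control, for each gene (x axis) in the 3 knockdown pairs (KD), the day 5 overexpression pairs and the day 4 overexpression pair (OE), arrays of equal replicate number being set against each other. Fgf8 and Fgf4 have the widest knockdown differences, in opposite directions in pairs 1 and 2, and the overexpression pairs lie between -0.39 and 0.25.

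The largest differences among the feedback and ETS genes lay between the days of the overexpression line. There, 5 of 10 members had an unadjusted limma p under 0.05 between day 5 and day 4 (14.2% of all genes did), all 5 lower on day 5 and all 5 from the feedback and ETS group. None was called after adjustment (0 of 10, against 0.558% of genes, 89 in number), and the alternatives run called between 0 and 5 of the 10. Day 4 of this line is replicate 3 alone, so day and replicate cannot be told apart.

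Spry2 stood at 12.51 and 12.50 with dox and 12.41 and 12.46 in the controls on day 5, against 12.99 and 12.85 with and without dox on day 4. All 4 day 5 arrays were below both day 4 arrays, and the difference was -0.45 ± 0.089 SE, 1.36-fold lower (limma adjusted p = 0.0601). Spry4, with the levels given above, was -0.55 ± 0.11 SE, 1.47-fold lower (limma adjusted p = 0.0654). Etv4 stood at 9.01 and 8.86 with dox and 9.02 and 8.87 in the controls on day 5, against 9.67 and 9.49 on day 4, a difference of -0.64 ± 0.14 SE, 1.56-fold (limma adjusted p = 0.0742). The day 5 and day 4 arrays did not overlap for Spry2, Spry4 or Etv4.

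Etv5 stood at 10.72 and 10.98 with dox and 10.63 and 10.90 in the controls on day 5, against 11.33 and 11.28 on day 4 (-0.50 ± 0.11 SE, 1.41-fold; limma adjusted p = 0.0793). Its second probe set, 10438626, which tracked the brightest with r = 0.973 over the arrays, gave -0.76 and an adjusted p of 0.0424 in limma, so the call for Etv5 depends on the probe set. Dusp6, by the levels above, was -0.29 ± 0.10 SE, 1.22-fold lower (limma adjusted p = 0.228). For Etv4, Etv5, Spry2 and Spry4 the 4 day 5 arrays were also below all 8 day 4 arrays of both lines, an ordering that 3.71% of genes shared; this comparison was added after the values were seen. Within the overexpression line alone 6 members had all day 5 arrays below both day 4 arrays, against 15.1% of genes. These were the ligand Fgf17 and Spry2, Spry4, Dusp6, Etv4 and Etv5.

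The ligands and the receptor had no unadjusted limma p under 0.05 between the days, although Fgf8 and Fgf17 differed by more than Dusp6. Fgf8 was -0.35 ± 0.45 SE (-0.51 to -0.21 on leaving out single arrays), Fgf17 -0.32 ± 0.20, Fgf15 -0.080 ± 0.14, Fgfr1 -0.19 ± 0.14 and Fgf4 0.12 ± 0.38 (log2, day 5 minus day 4). Summed intensities of marker lists differed between the days too. Feeder fibroblast markers (9 of 11 above the filter) summed to 3351 to 5834 on day 5, against 2534 to 2728 on day 4, and primed epiblast markers to 6354 to 10015 on day 5, against 13072 to 13532 on day 4. Of the feeder list, the smooth muscle actin gene Acta2 weighs most in the sum and was named after its values were seen. It stood at 10.40 to 11.76 on day 5, against 9.43 to 9.96 on day 4 of the overexpression line. Knockdown control replicate 1, a day 4 array, had Acta2 at 10.87 and a feeder sum of 3558. Visceral endoderm markers in the overexpression line summed to 6077 to 7102 on day 5, against 3872 to 4206 on day 4. The part of these marker lists in the lower feedback genes was not tested. In bulk samples fewer cells of a type and less RNA per cell cannot be told apart.

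**Figure D3:**
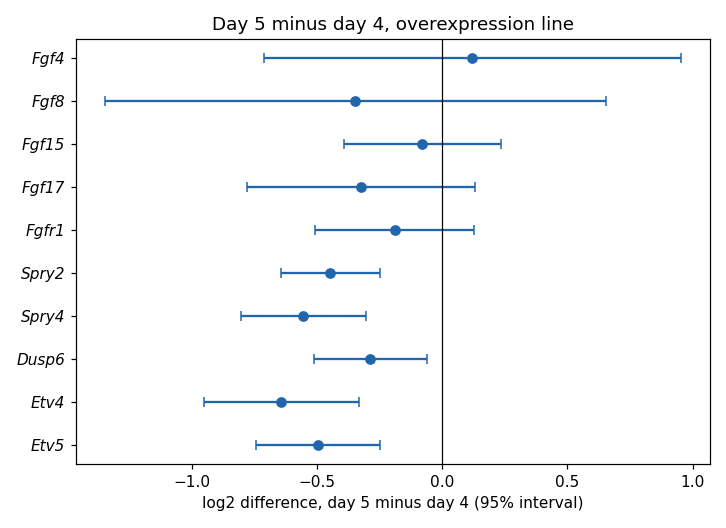
Log2 difference between day 5 and day 4 in the overexpression line (x axis) with its 95% interval from the fit, for each of the 10 genes. The intervals of Spry2, Spry4, Dusp6, Etv4 and Etv5 lie below 0 and those of the ligands and Fgfr1 include it.

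The promoters of 3 of these 5 genes are shown because they were lower together on day 5 and because ETS factors, which ERK phosphorylates, bind DNA around GGAA. The letters searched were the longer CGGAA, and GGAA without the C before it was not counted. Each line gives the 250 bases before the gene's start, 5′ to 3′ on the gene's strand, from RefSeq (GRCm38.p6), with matches to CGGAA or its reverse complement TTCCG in capitals. Dusp6 lies at chr10:99262981-99263230 on the plus strand, Spry2 at chr14:105896820-105897069 on the minus strand and Etv5 at chr16:22439571-22439820 on the minus strand.
Dusp6: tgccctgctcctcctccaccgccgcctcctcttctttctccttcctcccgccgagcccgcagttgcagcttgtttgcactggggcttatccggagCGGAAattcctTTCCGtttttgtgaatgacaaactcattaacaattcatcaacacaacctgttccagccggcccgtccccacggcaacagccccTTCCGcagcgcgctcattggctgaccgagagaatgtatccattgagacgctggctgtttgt
Spry2: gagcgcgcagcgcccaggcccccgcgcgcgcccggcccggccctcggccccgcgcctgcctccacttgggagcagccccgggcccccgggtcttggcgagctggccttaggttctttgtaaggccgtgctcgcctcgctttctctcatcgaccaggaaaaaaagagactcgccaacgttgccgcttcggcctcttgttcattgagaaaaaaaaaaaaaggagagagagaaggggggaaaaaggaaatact
Etv5: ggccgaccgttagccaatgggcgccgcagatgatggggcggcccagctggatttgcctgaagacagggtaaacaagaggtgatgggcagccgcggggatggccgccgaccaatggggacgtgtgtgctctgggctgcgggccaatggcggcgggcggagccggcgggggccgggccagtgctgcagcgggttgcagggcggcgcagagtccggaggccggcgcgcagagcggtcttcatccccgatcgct
Dusp6 held 3 matches, starting 155, 144 and 61 bases before the start, and the Spry2 and Etv5 windows held 0. Of 27025 gene windows of the same length, 25.4% held at least 1 match. A match is a description of letters and not of binding. The promoters of Spry4 and Etv4 were not examined, and a link between matches and day differences was not tested.

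The 2 most variable ligands ran in opposite directions. Across the 12 arrays Fgf4 and Fgf8 gave Pearson r = -0.920 (permutation p = 2e-05, adjusted over 45 pairs of members 0.0009) and Spearman rho = -0.895 (permutation p = 0.00027, adjusted 0.0121). Without the arrays farthest from the median of Fgf4, r was -0.934. It was -0.920 within the knockdown line (exact permutation p = 0.00694, n = 6) and -0.839 within the overexpression line (exact permutation p = 0.0569, n = 6). Knockdown control replicate 2 had the highest Fgf4 and the lowest Fgf8 of all arrays. Dox and control arrays of replicate numbers 1 and 2 resembled each other, so the 12 are not fully independent and these p-values are too small.

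**Figure D4:**
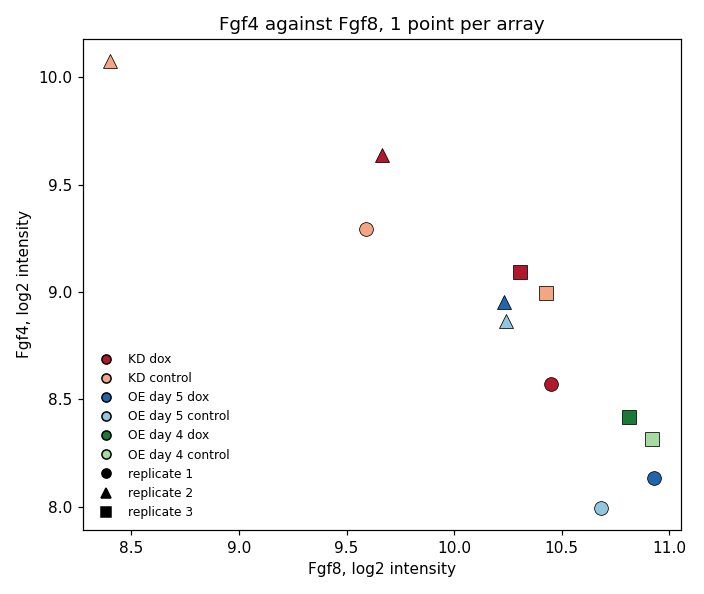
Fgf4 (y axis) against Fgf8 (x axis), log2 intensity, 1 point per array, coloured by line (KD, knockdown; OE, overexpression), day and dox, with shape for replicate number. Points run from knockdown control replicate 2 at 8.40 for Fgf8 and 10.07 for Fgf4 down to the day 5 and day 4 overexpression arrays, with r = -0.920.

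Replicates 1 and 2 differed along the same axis. In a fit with the replicate number as a term within each line, Fgf4 was higher in replicate 2 than in replicate 1 by 0.92 ± 0.17 SE, 1.90-fold, in the knockdown line (limma adjusted p = 0.0263). It was higher by 0.84 ± 0.17 SE, 1.79-fold, on day 5 of the overexpression line (limma adjusted p = 0.0242). It was the 1 member called of 10 in each, against 7.55% and 13.7% of all genes. The knockdown call was lost on leaving out any 1 array other than the knockdown arrays of replicate 3 (Fgf4 difference 0.65 to 1.20). The day 5 call was lost on leaving out any 1 of the 4 day 5 arrays (0.82 to 0.86). Replicate 3 of the knockdown line did not follow this axis against replicate 1. Fgf4 was higher there by 0.11 ± 0.17 SE and Fgf8 also higher, by 0.35 ± 0.28 SE. Limma called 0 of 10 members in that contrast, against 0.0188% of all genes.

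Fgf8 was lower in replicate 2 than in replicate 1 in both lines, by -0.99 ± 0.28 SE (limma adjusted p = 0.0816) in the knockdown line and -0.57 ± 0.28 SE (limma adjusted p = 0.217) on day 5. In the knockdown line Fgf17 gave -0.55 ± 0.15 SE (limma adjusted p = 0.0766), Etv4 0.33 and Spry4 0.23. Leaving out single arrays gave Fgf8 -1.43 to -0.54, Fgf17 -0.86 to -0.24, Etv4 0.17 to 0.50 and Spry4 0.13 to 0.34. Fgf8 was called without either knockdown array of replicate 3, and Fgf17 without knockdown dox replicate 2 (lowest limma adjusted p = 0.00703 and 0.0220). The day 5 difference of Fgf8 was called without either knockdown array of replicate 3 (limma adjusted p = 0.0257). On day 5 Etv5 gave 0.27 ± 0.078 SE (limma adjusted p = 0.0653). Fgf5, a ligand that marks the primed epiblast and is no member, was singled out after its values were seen. It stood in replicate 2 at 9.52 with dox and 8.62 without in the knockdown line, against 10.89 and 10.35 in replicate 1 (-1.55 ± 0.16 SE; limma adjusted p = 0.00489). On day 5 it stood at 9.08 and 9.52 in replicate 2, against 10.84 and 10.97 in replicate 1 (-1.61 ± 0.16 SE; limma adjusted p = 0.00393).

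Marker lists also differed between replicates 1 and 2. The 12 primitive streak markers summed to 3702 and 2809 in the knockdown dox and control arrays of replicate 2, against 8190 and 4732 in those of replicate 1, and to 8056 and 7914 on day 5 in replicate 2, against 12304 and 12821 in replicate 1. The 12 naive pluripotency markers summed to 13720 and 16521 in replicate 2, against 10333 and 13697 in replicate 1 of the knockdown line, and to 18268 and 14553, against 9852 and 8855, on day 5. Of the streak list on day 5, limma called 5 lower in replicate 2 and 2 higher. Blood and endothelial markers (10 of 11 above the filter) summed to 5623 and 5893 on day 5 in replicate 2, against 3210 and 3411 in replicate 1. Limma called 7 of these 10 higher there (13.7% of all genes were called). In the knockdown line their sums were 2816 and 2952, against 2477 and 2434. Visceral endoderm markers (12 of 13 above the filter) summed to 10896 and 12811 in knockdown replicate 2 and to no more than 7102 in any other array. Their part in the levels of Fgf4 and Fgf8 was not tested. With dox in the knockdown line, 11 of 12 streak markers were above 0 (median 0.56) and 11 of 12 naive markers below it (median -0.43), with 0 called by limma in either list and 1 and 2 at an unadjusted p under 0.05 (3.76% of all genes). All 8 primed epiblast markers were above 0 (median 0.29) and 11 of 12 visceral endoderm markers below it (median -0.30), with 0 called and 0 at an unadjusted p under 0.05 in either list.

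The lines also differed on these ligands at day 4. Fgf4 was higher in the knockdown line than in the overexpression line by 1.14 ± 0.43 SE, 2.21-fold, and Fgf8 was lower by -1.37 ± 0.52 SE, 2.59-fold (limma adjusted p = 0.348 for each). The Fgf8 difference was -0.84 without knockdown control replicate 2 and -1.85 without knockdown control replicate 3, uncalled in both. Spry2 was -0.24 ± 0.10 SE (limma adjusted p = 0.400). These 3 had an unadjusted p under 0.05, where 11.6% of genes did, and 0 of 10 were called (0.307% of genes), with between 0 and 2 called under the alternatives run. The overexpression line is represented at day 4 by replicate 3 alone. Its day 4 streak markers summed to 11744 with dox and 13076 without, against 3702 to 8190 with dox and 2809 to 5305 without in the knockdown line, and the part of this difference in the ligand levels was not tested.

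Of the 10 pairs among the 5 feedback and ETS genes, 4 passed the adjustment for Pearson over the arrays. As above, the 12 arrays are not fully independent and these p-values are too small. The permutations also took no account of day, and Spry2, Spry4, Etv4 and Etv5 were all lowest in the day 5 arrays. Spry4 and Etv4 gave r = 0.90 over the 12 arrays (permutation p = 7e-05, adjusted 0.00157; Spearman rho = 0.860, permutation p = 0.00068, adjusted 0.0153). Within the knockdown line r was 0.545 (exact permutation p = 0.275, n = 6), within the overexpression line 0.970 (exact permutation p = 0.0111, n = 6), and 0.867 without the 2 farthest arrays. Etv4 and Etv5 gave r = 0.801 (permutation p = 0.00159, adjusted 0.0238; Spearman rho = 0.799, permutation p = 0.00283, adjusted 0.0318), with 0.905 within the knockdown line, 0.790 within the overexpression line and 0.785 without the 2 farthest arrays. The pairs of Spry4 with Etv5 (r = 0.780) and of Spry2 with Etv4 (r = 0.740) passed the adjustment for Pearson (adjusted p = 0.0310 and 0.0482, permutation) but not for Spearman (adjusted p = 0.0700 and 0.0512, permutation). Their r was 0.249 and -0.156 within the knockdown line, and 0.817 and 0.958 within the overexpression line. Dusp6 gave r = 0.65 with Spry2, 0.39 with Spry4, 0.36 with Etv4 and 0.075 with Etv5, none past the adjustment (adjusted permutation p = 0.0893 to 0.958). Spry2 and Spry4 gave r = 0.66 (adjusted permutation p = 0.0893), which was -0.83 within the knockdown line and 0.96 within the overexpression line. Fgf8 with Fgfr1 (r = 0.747) fell to 0.387 without the 2 farthest arrays and rests on them.

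The genes whose levels over the 12 arrays were most like those of Fgf8 were Vrtn (r = 0.972), Fst (0.971), Zfp608 (0.961), Wnt3 (0.955) and Lrfn4 (0.954). For Fgf4 they were Klf9 (r = 0.984), Pramel13 (0.981), Ncoa3 (0.979), Rinl (0.978) and Zfp961 (0.977). For Dusp6 they were Atp13a1 (r = 0.924), Kcnh8 (0.899), Fam133b (0.883), Dusp5 (0.878) and Ppp1r14b (0.875). Wnt3 is also among the streak markers summed above. Likeness was Pearson's r over all 12 arrays, a description that carries no test. It was ranked among the tested genes, leaving out predicted and unnamed gene models, Rik clones, and olfactory, vomeronasal and small RNA genes.

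The rest of the pathway was examined in 4 lists of further genes, and limma called 0 members of any list for dox in either line. Of 15 other FGF ligands tested, the largest knockdown differences were those of Fgf5 (0.54 ± 0.59 SE), the mitogen Fgf2 (0.49 ± 0.22) and the metabolic hormone Fgf21 (-0.31 ± 0.16). The same 3 genes led in the overexpression line, with -0.26 ± 0.59, -0.17 ± 0.22 and -0.29 ± 0.16. With array weights Fgf21 was called there, at -0.52 (limma adjusted p = 0.0427). Fgf2 was higher with dox in all 3 knockdown pairs, by 0.21, 0.56 and 0.70. Without weights none of the 15 had an unadjusted p under 0.05 in either line.

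Of 20 other receptors and co-receptors, the heparan sulfate carrier Sdc1 (0.37 ± 0.16 SE) and its relative Sdc4 (-0.34 ± 0.13) had an unadjusted limma p of 0.0412 and 0.0212 in the knockdown line (adjusted 0.965 for each). The cell adhesion gene Cdh2, whose product N-cadherin binds FGF receptors, gave 0.38 ± 0.25. The carrier protein gene Fgfbp1 (0.25 ± 0.24) and the membrane proteins Flrt2 (-0.23 ± 0.18) and Flrt3 (-0.13 ± 0.37) led in the overexpression line, with 0 at an unadjusted p under 0.05. Between day 5 and day 4, 1 of the 20 was called (0.558% of all genes were), the glypican gene Gpc3, named after its values were seen, at 1.14 ± 0.19 SE (limma adjusted p = 0.0383).

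Of 15 adaptors and cascade kinases tested, the largest knockdown differences were those of the Ras activator Sos1 (0.18 ± 0.15 SE), the adaptor Shc1 (0.097 ± 0.098) and the docking protein Gab2 (-0.085 ± 0.22). For overexpression they were those of Gab1 (0.12 ± 0.24), the adaptor Grb2 (0.11 ± 0.15) and the kinase Araf (0.10 ± 0.081). Of 28 other feedback and readout genes, the AP-1 gene Fosl1 (-0.31 ± 0.16), the ERK phosphatase gene Dusp9 (-0.30 ± 0.15) and the receptor antagonist Il17rd (0.26 ± 0.15) led in the knockdown line. Dusp9 was lower with dox in all 3 knockdown pairs, by 0.52, 0.27 and 0.11. The phosphatase gene Dusp2 (0.19 ± 0.099) and the relatives of the Sprouty inhibitors Spry3 (-0.18 ± 0.11) and Spred3 (0.18 ± 0.15) led in the overexpression line. In these 2 lists 0 genes had an unadjusted p under 0.05 for dox in either line.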

How the data were processed

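Total RNA, 1 µg per sample, was biotin-labelled, per the labels' protocols, and the platform was the Affymetrix Mouse Gene 1.0 ST array. What was deposited are linear intensities, 1 per probe set and array; how the authors summarised and normalized them is not given in the sources used here. The medians of the arrays lay between 145.3 and 182.2. Precision is limited by how few arrays there are. A pseudocount of 1 was added, log2 taken and quantile normalization applied over all 35512 probe sets. Of these, 21789 named 1 gene. Genes below the 20th percentile of mean level (6.46) were not tested.

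The model (limma 3.58.1, R 4.3.3) had a baseline per line and day and 1 dox effect per line, with 7 residual degrees of freedom; the replicate contrasts used 4. Correlations used 100000 permutations (scipy 1.17.1). The fit was run on simulated arrays with known changes, drawn with independent noise around 1 mean per gene. It does not cover the likeness between arrays of equal replicate number. The genes named were the members, Gmnn and the 3 tested genes of each list with the largest dox effect per line. Also named were the 5 most similar genes of Fgf8, Fgf4 and Dusp6. Gpc3, Acta2, the replicate contrast of Fgf5 and the single visceral endoderm markers fall outside this rule. Members and lists were chosen with earlier results of these data known. Alternatives were a replicate block, no quantile normalization, pseudocount 16, other filters (none, 40th percentile), 1 line alone, day 5 alone, array weights, the second probe set and leaving out each array.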

Additional observations from a re-analysis of the deposited data

Results flagged for a closer look

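Spry4 was the only one of the 10 genes whose pairs all pointed one way in one line and all the other way in the other. With dox it was lower in 3 of 3 knockdown pairs and higher in 3 of 3 overexpression pairs. The share of all genes with such a split was not computed. The difference of the effects, knockdown minus overexpression, was -0.25 ± 0.15 SE, and the test of that difference in limma did not call it (adjusted p = 1.00, unadjusted p = 0.133). With the replicate number as a term the SE was 0.10 and the limma unadjusted p was 0.0461. The difference was not called there either (limma adjusted p = 0.570). In each line the range of the controls was wider than the dox effect.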

How the results depend on the processing

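Of 1585 recomputed values, 1478 kept their direction and their side of the threshold, or moved within the replicate spread. The number of members called for dox was 0 in both lines under every alternative run. All genes called for dox numbered 0 with a line alone, against 1 in each line; in the overexpression line 0 with day 5 alone, 201 with array weights and 0 to 1 on leaving out single arrays. Array weights gave each of the day 4 overexpression arrays 5.57, against 0.41 to 1.23 elsewhere, and that pair has no replicate of its own.

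For day 5 against day 4, 5 members were called with the replicate block (Spry2, Spry4, Dusp6, Etv4, Etv5; 10.7% of all genes), 5 with array weights, 1 at the 40th percentile filter, 1 with the second probe set, and 0 to 1 without single arrays. For the lines, 2 were called with the replicate block (Fgf4 and Fgf8; 7.41% of all genes) and 2 with array weights. For replicate 2 against 1 in the knockdown line, 0 were called with that line alone and 0 to 2 without single arrays, Fgf4 losing its call without 10 of the 12 arrays in turn. On day 5 it was 2 with no quantile normalization, 2 at the 40th percentile, 2 with that line alone, 0 with array weights and 0 to 2 without single arrays. Dox and control arrays of equal replicate number were correlated over all tested genes after each gene's group mean was subtracted. This gave 0.602, 0.438 and 0.0510 in the knockdown line and 0.785 on day 5, where 2 arrays per group make both pairs equal. The third knockdown value lay under the 0.1 required of every pair. The numbers were therefore not taken as pairs, although replicates 1 and 2 resembled each other.

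Directions turned for small effects. With array weights, Fgf8 and Flrt3 for overexpression dox were -0.082 and 0.054. With day 5 alone, Fgf15 and Etv4 for overexpression dox were 0.097 and -0.011. Leaving out single arrays gave, for knockdown dox, Fgf17 -0.012 to 0.42, Fgf5 -0.0098 to 0.91 and Gab2 -0.29 to 0.089. For overexpression dox it gave Fgf4 -0.14 to 0.36, Fgf8 -0.18 to 0.22, Fgf15 -0.14 to 0.097, Etv4 -0.011 to 0.12, Etv5 -0.0047 to 0.15, Fgf5 -0.75 to 0.25, Fgf2 -0.32 to 0.022 and Gab1 -0.12 to 0.36. By day it gave Fgf4 -0.064 to 0.31 and Fgf15 -0.32 to 0.16. Where an alternative's construction does not show it, the cause was not tested.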
